A study of Homo sapiens with 27 samples.

Results

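The 116 genes described here are the protein-coding genes with a GENCODE (release 44) span of at least 500 kb and a mean of at least 1 CPM (counts scaled by the total of the library) over 5 control samples, with WWOX, SMYD3, TENM4, RUNX1 and the PTPR genes left out by name. They were 116 of 11465 protein-coding genes that reached this level in the controls, and of 318 protein-coding genes with such a span at any level. The genes were thus chosen by their span and by their measured level in the controls, and the names removed 9 of the 125 that met both limits. RNA sequencing had been performed on REH, an ETV6/RUNX1-positive B-cell precursor leukemia cell line, 72 h after exposure to LNA GapmeRs at 10 µM. Controls were cells in medium alone (n = 2) and cells given the non-targeting GapmeR NTC (n = 3). The other 22 samples had received 1 of 8 GapmeRs, a pair for each of 4 lncRNAs. lnc-NKX2-3-1 had 2 samples with GapmeR1 and 3 with GapmeR2, lnc-RTN4R-1 had 3 and 3, lnc-TIMM21-5 had 3 and 3, and lnc-ASTN1-1 had 3 and 2. By their labels, medium and lnc-NKX2-3-1 GapmeR1 had replicates 1 and 2 only, and lnc-ASTN1-1 GapmeR2 had replicates 1 and 3. These groups are thus compared with groups that hold other replicate numbers. All samples came from this single cell line without a transfection reagent, and replicates were run on different days per the methods of the study.

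An LNA GapmeR is a short DNA oligonucleotide flanked by locked nucleic acid bases, and RNase H cuts RNA that is paired with its DNA part. RNase H is also present in the nucleus, so that introns of unspliced transcripts can be cut as well as exons of mature RNA. Very long human genes consist almost entirely of intron, need many hours to be transcribed once, and are over-represented among neuronal adhesion and synapse genes and among the common fragile sites.

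The sequences of the 9 oligonucleotides are shown because the comparisons below are between them. Each is written 5′ to 3′, with all bases in capitals since every base can pair with a target:
NTC: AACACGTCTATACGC
lnc-NKX2-3-1 GapmeR1: TGCTCTGTGCGGATTG
lnc-NKX2-3-1 GapmeR2: CTGATTTTTAGTAGTG
lnc-RTN4R-1 GapmeR1: GCATTCATGGGTTAAG
lnc-RTN4R-1 GapmeR2: TGCTGAGACATCTAGG
lnc-TIMM21-5 GapmeR1: AATTTTGCATTTGGTA
lnc-TIMM21-5 GapmeR2: GTCACTTTAATTTTGC
lnc-ASTN1-1 GapmeR1: TAATCTGCCAGGAGTG
lnc-ASTN1-1 GapmeR2: GTCTGAAGTAATGGA
The share of G and C bases ran from 25% in lnc-TIMM21-5 GapmeR1 to 56.2% in lnc-NKX2-3-1 GapmeR1. In the hg38 sequence, 7 of the 8 targeting GapmeRs paired with every base of a site in an exon of their own lncRNA. The site of lnc-ASTN1-1 GapmeR1 was found only in spliced transcripts of its target, in 8 of them.

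Between 14627110 and 22750945 reads were counted per sample, and 16268 genes passed the filter on low counts, among them all 116 long genes. Upon treatment each target had a lower level than in the controls, with log2 fold changes from -2.91 for lnc-TIMM21-5 GapmeR2 to -0.94 for lnc-ASTN1-1 GapmeR2. Of the 8, only the fall with lnc-NKX2-3-1 GapmeR2 missed the threshold (adjusted p = 0.0987), and it passed with the replicate number as a block (adjusted p = 0.00184). The control level of that target was between 0.326 and 1.26 CPM. Of 12 markers of B-cell precursors, 11 had a mean of at least 1 CPM, with a summed level of 5483 to 6382 CPM per sample. Only 1 of 6 T-cell markers (TRAC, 14.7 CPM) reached this level and 2 were at 0 in all samples, and none of 4 erythroid markers did, with a sum of at most 0.0586 CPM. Of 6 myeloid markers, 3 did and 1 was at 0 throughout, with MPO highest at 136 CPM. Their summed level was 87.8 to 144 CPM in the controls, 161 to 193 CPM with lnc-NKX2-3-1 GapmeR1, 291 to 454 CPM with lnc-RTN4R-1 GapmeR2 and 85.5 to 162 CPM in the remaining samples. The first pair of GapmeRs is also the one with most changes described below, and the part of the myeloid level in these was not tested.

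The 116 genes spanned 500 to 2242 kb with a median of 659 kb, whereas their merged exons covered a median of 12.3 kb in 29 blocks. The longest stretch between exon blocks had a median of 142.3 kb. Control levels ran from 1.01 to 287.2 CPM with a median of 17 CPM. The largest spans belonged to DMD (2242 kb), which encodes dystrophin, DLG2 (2173 kb), which encodes a synaptic scaffold protein, and CSMD1 (2060 kb), which encodes a complement regulator. Per kilobase of exon, the highest control levels were those of CDK14, a cyclin-dependent kinase, at 32.1 CPM per kb, of the RNA-binding protein gene CELF2 at 23.8 and of UTRN, the dystrophin relative utrophin, at 19.1. Just inside the limit on span were AFF2 (500 kb, 32.5 CPM) and CPQ (504.4 kb, 5.43 CPM), and just outside were DIAPH3 (498.3 kb, 39.3 CPM) and ITPR2 (497.8 kb, 42.0 CPM). On the limit of level, SEMA5A (1.01 CPM) and NFIA (1.07 CPM) were inside, and DLC1 (0.99 CPM) and DPP6 (0.895 CPM) outside. The control level and the span chose these genes, so neither is a result, and a fold change over the same controls starts from a level that was used in the choice. The span is that of all annotated transcripts of a gene, and the counts do not show which promoter was used.

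Most of the long genes fell with lnc-NKX2-3-1 GapmeR1 and with lnc-RTN4R-1 GapmeR2, few fell with 3 other GapmeRs, and none passed the test with the remaining 3. With lnc-NKX2-3-1 GapmeR1, 81 of 116 were lower than in the controls (edgeR quasi-likelihood test with Benjamini-Hochberg adjustment over all genes, adjusted p under 0.05) and 2 were higher. Over all genes tested, 11.7% were lower and 8.06% higher in this comparison. The median log2 fold change of the 116 was -0.80 against -0.01 over all genes, and 41 were lower by 1 or more on the log2 scale. lnc-RTN4R-1 GapmeR2 gave 61 lower and 3 higher, beside 5.46% lower and 4.32% higher over all genes, and a median of -0.41. For lnc-ASTN1-1 GapmeR1, 14 were lower and 0 higher, with 0.996% of all genes lower and 0.191% higher, and a median of -0.16. lnc-RTN4R-1 GapmeR1 had 7 lower and 4 higher against 0.842% and 1.35% of all genes, with a median of -0.06. lnc-TIMM21-5 GapmeR1 had 3 lower and 0 higher against 0.178% and 0.00615%, with a median of -0.07.

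**Figure D1:**
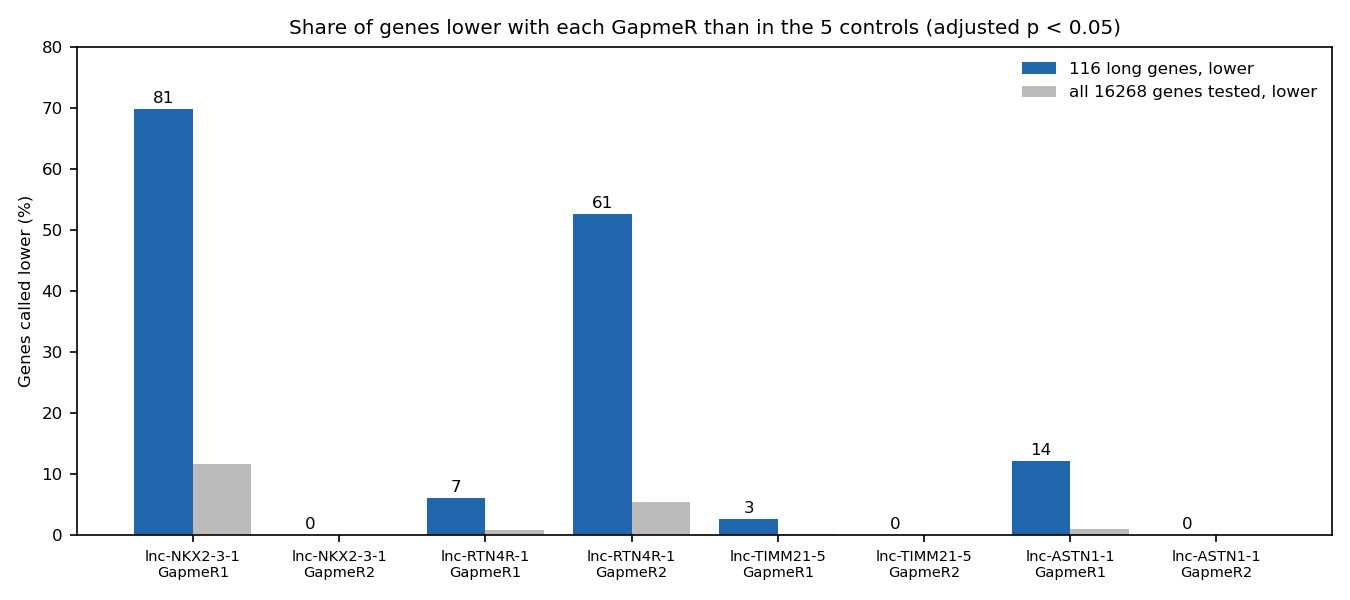
Share of genes called lower (vertical axis, %) with each GapmeR compared with the 5 controls (horizontal axis), for the 116 long genes (blue, with their number above the bar) and for all 16268 genes tested (grey). The blue bars reach 69.8% for lnc-NKX2-3-1 GapmeR1 and 52.6% for lnc-RTN4R-1 GapmeR2, beside grey bars at 11.7% and 5.46%.

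None of the 116 was called with lnc-NKX2-3-1 GapmeR2, lnc-TIMM21-5 GapmeR2 or lnc-ASTN1-1 GapmeR2 in edgeR, where 15, 21 and 4 had an unadjusted p under 0.05 and the shares of all genes lower were 0.0184%, 0.0676% and 0.0184% (higher, 0.0123%, 0.0% and 0.0%). DESeq2 called 0, 1 and 0. Their medians were -0.03, -0.08 and -0.05. With the replicate number as a block, these GapmeRs gave 4, 5 and 1 lower genes, and lnc-ASTN1-1 GapmeR1, lnc-RTN4R-1 GapmeR1 and lnc-TIMM21-5 GapmeR1 gave 36, 16 and 10. The shares of all genes lower in these blocked fits were 1.13%, 0.301%, 0.111%, 2.92%, 3.03% and 1.08% in the same order. The blocked fit gave 89 lower genes for lnc-NKX2-3-1 GapmeR1 (18.2% of all genes) and 80 for lnc-RTN4R-1 GapmeR2 (12.3%). NTC and medium were compared as well, and none of the 116 differed (0 in edgeR and in DESeq2, 5 with an unadjusted p under 0.05, 0.0% of all genes).

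Samples that all lay below the controls were counted as well. Both samples of lnc-NKX2-3-1 GapmeR1 were below all 5 controls for 88 of the 116 (18.6% of all genes), and all 3 of lnc-RTN4R-1 GapmeR2 for 64 (8.01%). For lnc-ASTN1-1 GapmeR1 this held for 36 (3.25%), for lnc-RTN4R-1 GapmeR1 for 11 (3.48%) and for lnc-TIMM21-5 GapmeR1 for 17 (2.16%). The GapmeRs without calls had 7, 11 and 11 such genes in the order lnc-NKX2-3-1, lnc-TIMM21-5 and lnc-ASTN1-1, beside 1.84%, 1.28% and 3.2% of all genes.

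Over the 116 genes and 8 GapmeRs, the lowest level relative to the controls was that of NRXN3 with lnc-NKX2-3-1 GapmeR1. This gene, which encodes the presynaptic adhesion protein neurexin 3 (chr14:78170373-79868291, 1698 kb), had 1.67 and 1.43 CPM in medium and 1.75, 1.38 and 2.39 CPM with NTC, and 0.0458 and 0 CPM with this GapmeR. The samples did not overlap, and the latter values stand for a single read in both samples together against 154 reads in the controls. Its level was thus 1.36% of the controls, with an exact 95% interval of 0.0342% to 7.70% that covers counting error only. AGAP1, a GTPase-activating protein of endosomal traffic (chr2:235494043-236131793), had 11.3 and 9.65 CPM in medium and 9.51, 11 and 12.4 CPM with NTC, and 1.28 and 0.726 CPM with lnc-NKX2-3-1 GapmeR1 (log2 fold change -3.40, SE 0.18, adjusted p = 4.81e-13). ANK3, which encodes the membrane scaffold ankyrin-G, fell from 4.11 ± 0.946 CPM (SD, n = 5) in the controls to 0.504 and 0.311 CPM (log2 fold change -3.29, SE 0.38, adjusted p = 3.10e-07). In both genes all treated samples were far below the lowest control.

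SDK1, an immunoglobulin-family adhesion molecule of synapses, had 36.8 and 36.6 CPM in medium and 35.2, 35.8 and 42.1 CPM with NTC, and 4.58 and 4.77 CPM with lnc-NKX2-3-1 GapmeR1 (log2 fold change -2.995, SE 0.13, adjusted p = 4.54e-15). PLCB1, phospholipase C beta 1 (chr20:8077251-8968360), had 26.9 and 27.3 CPM in medium and 30.3, 28.9 and 29 CPM with NTC, and 3.9 and 4.82 CPM upon this treatment (log2 fold change -2.71, SE 0.10, adjusted p = 1.82e-16). Its 5 controls lay between 26.9 and 30.3 CPM, so that the fall was many times their spread. Of the 81 lower genes, the median log2 fold change was -1.01, and 10 fell by less than 0.5. The 2 genes that rose with this GapmeR were PDE4B and PCDH9, described below.

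With lnc-RTN4R-1 GapmeR2 the deepest fall was that of DLGAP2, which encodes a postsynaptic scaffold protein. It had 5.6 and 5.37 CPM in medium and 4.75, 6.35 and 6.84 CPM with NTC, and 0.696, 0.222 and 0.404 CPM with this GapmeR (log2 fold change -3.70, SE 0.25, adjusted p = 5.88e-11). NRXN3 followed with 0.290, 0.278 and 0.288 CPM (log2 fold change -2.57, SE 0.35, adjusted p = 8.52e-06). GRIP1, a PDZ scaffold that binds glutamate receptors (chr12:66347431-67069162), had 20.8 and 23.9 CPM in medium and 21.3, 20.4 and 22.8 CPM with NTC, and 4.46, 4.17 and 4.32 CPM (log2 fold change -2.34, SE 0.10, adjusted p = 4.67e-15). None of these samples overlapped with the controls. ST6GALNAC3, a sialyltransferase, fell from 12.8 ± 2.16 CPM (SD, n = 5) to 3.65, 2.06 and 5.48 CPM (log2 fold change -1.79, SE 0.25, adjusted p = 1.81e-05), with a wide spread between its 3 samples that stayed below the controls. DMD fell to 3.6, 3.28 and 2.88 CPM (log2 fold change -1.71, SE 0.15, adjusted p = 6.20e-09). UTRN, the most abundant of the long genes at 288 ± 14.7 CPM (SD, n = 5) in the controls, had 151, 137 and 124 CPM (log2 fold change -1.07, SE 0.07, adjusted p = 8.44e-11). With lnc-NKX2-3-1 GapmeR1 the same gene had 217 and 224 CPM, a log2 fold change of -0.38 (adjusted p = 0.00129).

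lnc-ASTN1-1 GapmeR1 moved the long genes less. GRIP1 had 10.6, 12.1 and 11.4 CPM with it, below every control (log2 fold change -0.95, SE 0.08, adjusted p = 4.61e-08). TAFA2, a secreted chemokine-like protein, was at 1.55, 1.39 and 1.8 CPM after 2.74 ± 0.327 CPM (SD, n = 5) in the controls (log2 fold change -0.78, SE 0.19, adjusted p = 0.0389). SYT1, the calcium sensor of vesicle release, had 8.32, 6.85 and 11.8 CPM against 15.1 ± 1.14 CPM (SD, n = 5) (log2 fold change -0.74, SE 0.17, adjusted p = 0.0208). SUPT3H, a subunit of the SAGA chromatin complex, had 10.7, 12.2 and 12.5 CPM against 19.5 ± 2.33 CPM (SD, n = 5) (log2 fold change -0.73, SE 0.12, adjusted p = 0.000455). For VPS13B, a lipid-transfer protein of the Golgi, the values were 95.5, 89.8 and 82 CPM against 142 ± 2.75 CPM (SD, n = 5) (log2 fold change -0.67, SE 0.08, adjusted p = 9.37e-06). FAF1, a ubiquitin-binding protein, had 73.3, 70.9 and 68.7 CPM against 102 ± 5.85 CPM (SD, n = 5) (log2 fold change -0.52, SE 0.05, adjusted p = 9.39e-07). The calls of TAFA2 and of DMD with this GapmeR were lost in 7 of the 8 fits that left out 1 control or treated sample, and those of GRIP1, FAF1, SUPT3H and VPS13B in none.

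lnc-RTN4R-1 GapmeR1 lowered 7 of the 116. FGGY, a carbohydrate kinase (chr1:59296638-59810647), had 6.51 and 6.47 CPM in medium and 6.06, 5.41 and 5.97 CPM with NTC, and 3.52, 2.48 and 2.44 CPM with this GapmeR, below all controls (log2 fold change -1.12, SE 0.13, adjusted p = 3.87e-06). ANK3 followed with 2.1, 2.15 and 1.61 CPM (log2 fold change -1.07, SE 0.24, adjusted p = 0.0141). DMD had 5.99, 6.3 and 7.1 CPM (log2 fold change -0.72, SE 0.13, adjusted p = 0.00177) and IMMP2L, a subunit of the inner mitochondrial membrane peptidase, 3.73, 2.43 and 3.63 CPM against 4.7 ± 0.443 CPM (SD, n = 5) (log2 fold change -0.53, SE 0.14, adjusted p = 0.0497). The other 3 were CALN1, GRIP1 and ARHGAP15, whose log2 fold changes were -0.38, -0.30 and -0.28. Of these 7 calls, those of FGGY and DMD were kept in all 8 fits that left out 1 sample. ARHGAP15 kept its call in 7 fits, ANK3 in 6 and CALN1 in 2. IMMP2L and GRIP1 kept theirs in 1 fit each, without NTC replicate 3 and without NTC replicate 2. Without replicate 1 of this GapmeR, 4 of the 116 were called in place of 11. lnc-TIMM21-5 GapmeR1 lowered 3. MDGA2, an adhesion protein that restrains synapse formation (chr14:46840092-47675605), had 5.11 and 6.69 CPM in medium and 5.21, 5.85 and 3.64 CPM with NTC, and 1.98, 1.11 and 1.5 CPM (log2 fold change -1.79, SE 0.21, adjusted p = 1.58e-05). The lowest control of MDGA2 stood well above the highest of these samples. DMD had 5.73, 6.89 and 5.96 CPM (log2 fold change -0.78, SE 0.13, adjusted p = 0.00514) and SUPT3H 12.8, 10.9 and 14.2 CPM (log2 fold change -0.63, SE 0.11, adjusted p = 0.0105). Without replicate 1 of lnc-TIMM21-5 GapmeR1, MDGA2 alone passed the test.

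Of the 116 genes, 86 were lower with at least 1 GapmeR, 60 with at least 2, 16 with at least 3, 3 with at least 4 and 1 with 5. Over all genes tested, 3.15% were lower with at least 2 of the 8, 0.486% with at least 3, 0.0676% with at least 4 and 0.0184% with at least 5. All 8 comparisons share the 5 control samples. The number lower with at least 3 moved with the fit. It was 45 with the replicate block (2.23% of all genes), 9 with the samples of each comparison alone, 10 with NTC as the only control and 1 against the GapmeRs of the other lncRNAs. Among these a share over all genes is given for the block only, so the other counts describe the long genes alone.

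DMD (chrX:31097677-33339609) fell with 5 GapmeRs. Its levels were 11.2 and 11.2 CPM in medium and 10.3, 10.7 and 9.88 CPM with NTC. They were 2.43 and 2.75 CPM with lnc-NKX2-3-1 GapmeR1 and 8.2, 7.55 and 6.29 CPM with lnc-ASTN1-1 GapmeR1, besides the values given above for the other 3. With lnc-NKX2-3-1 GapmeR2 it had 8.77, 6.91 and 7.13 CPM, with lnc-TIMM21-5 GapmeR2 8.87, 8.5 and 5.47 CPM and with lnc-ASTN1-1 GapmeR2 8.4 and 8.55 CPM. All 22 samples with a targeting GapmeR were below the lowest control of 9.88 CPM, and 3 of the 8 comparisons missed the threshold (log2 fold changes -0.48 (adjusted p = 0.482), -0.49 (adjusted p = 0.586) and -0.33 (adjusted p = 0.9999)). In the comparison with lnc-NKX2-3-1 GapmeR1 the log2 fold change was -2.04 (adjusted p = 2.50e-09), and with lnc-ASTN1-1 GapmeR1 -0.54 (adjusted p = 0.0388).

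GRIP1 and CALN1 fell with 4 GapmeRs each, the same 4: both of lnc-RTN4R-1, lnc-NKX2-3-1 GapmeR1 and lnc-ASTN1-1 GapmeR1. With lnc-RTN4R-1 GapmeR1 the call was lost in 7 of the 8 fits that left out 1 sample for GRIP1 and in 6 of 8 for CALN1, which kept it without NTC replicate 1 or 3. GRIP1 had 10.9 and 9.8 CPM with lnc-NKX2-3-1 GapmeR1 and 17.1, 18 and 18.2 CPM with lnc-RTN4R-1 GapmeR1, with log2 fold changes of -1.08 (adjusted p = 5.43e-09) and -0.30 (adjusted p = 0.0439). CALN1, a calcium-binding protein of neurons (chr7:71779491-72447151), had 59.1 and 70.1 CPM in medium and 47.5, 54.6 and 51.3 CPM with NTC. It had 25.2 and 29.3 CPM with lnc-NKX2-3-1 GapmeR1, 47, 42.2 and 41.1 with lnc-RTN4R-1 GapmeR1, 39.4, 38.3 and 36.4 with lnc-RTN4R-1 GapmeR2 and 42.6, 36.7 and 37 with lnc-ASTN1-1 GapmeR1. Its log2 fold changes were -1.05 (adjusted p = 3.71e-07), -0.38 (adjusted p = 0.0430), -0.57 (adjusted p = 0.000397) and -0.54 (adjusted p = 0.00275). The controls of CALN1 varied more than those of GRIP1, from 47.5 to 70.1 CPM, and lnc-RTN4R-1 GapmeR1 came within 0.5 CPM of the lowest.

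The other 13 genes fell with 3 GapmeRs, always including lnc-RTN4R-1 GapmeR2. Of these, 12 also fell with lnc-NKX2-3-1 GapmeR1, and SUPT3H did not, with 16.6 and 13.8 CPM and a log2 fold change of -0.36 (adjusted p = 0.0523). Those that fell with lnc-ASTN1-1 GapmeR1 as well were CSMD1, SYT1, VPS13B, EXOC4, PARD3, TAFA2, RAD51B and CDK14. EXOC4, a subunit of the exocyst that tethers secretory vesicles, had 97.9 and 99.97 CPM in medium and 102, 97.9 and 98.1 CPM with NTC. The narrow controls gave small errors, and its log2 fold changes were -1.01, -0.82 and -0.28 with lnc-NKX2-3-1 GapmeR1, lnc-RTN4R-1 GapmeR2 and lnc-ASTN1-1 GapmeR1, each with an SE of 0.05 or 0.06 (adjusted p = 2.57e-12, 1.55e-11 and 0.00175). In the same order, PARD3, a cell polarity protein, had -0.85, -0.69 and -0.47, RAD51B, a recombination repair protein, -1.22, -0.69 and -0.52, and CDK14 -0.81, -0.27 and -0.39. CSMD1 had -1.86, -0.85 and -0.41, VPS13B -1.30, -0.55 and -0.67, SYT1 -1.31, -1.06 and -0.74, and TAFA2 -0.84, -1.26 and -0.78. FGGY, ANK3, IMMP2L and ARHGAP15, a GTPase-activating protein, fell with lnc-RTN4R-1 GapmeR1 in its place. ARHGAP15 had 86.4 and 79.4 CPM in medium and 92, 80.9 and 79.2 CPM with NTC, 35.5 and 33.2 CPM with lnc-NKX2-3-1 GapmeR1, 66.6, 68.5 and 71.2 CPM with lnc-RTN4R-1 GapmeR1 and 54, 54.3 and 58 CPM with lnc-RTN4R-1 GapmeR2. All 8 of these treated samples were below every control.

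**Figure D2:**
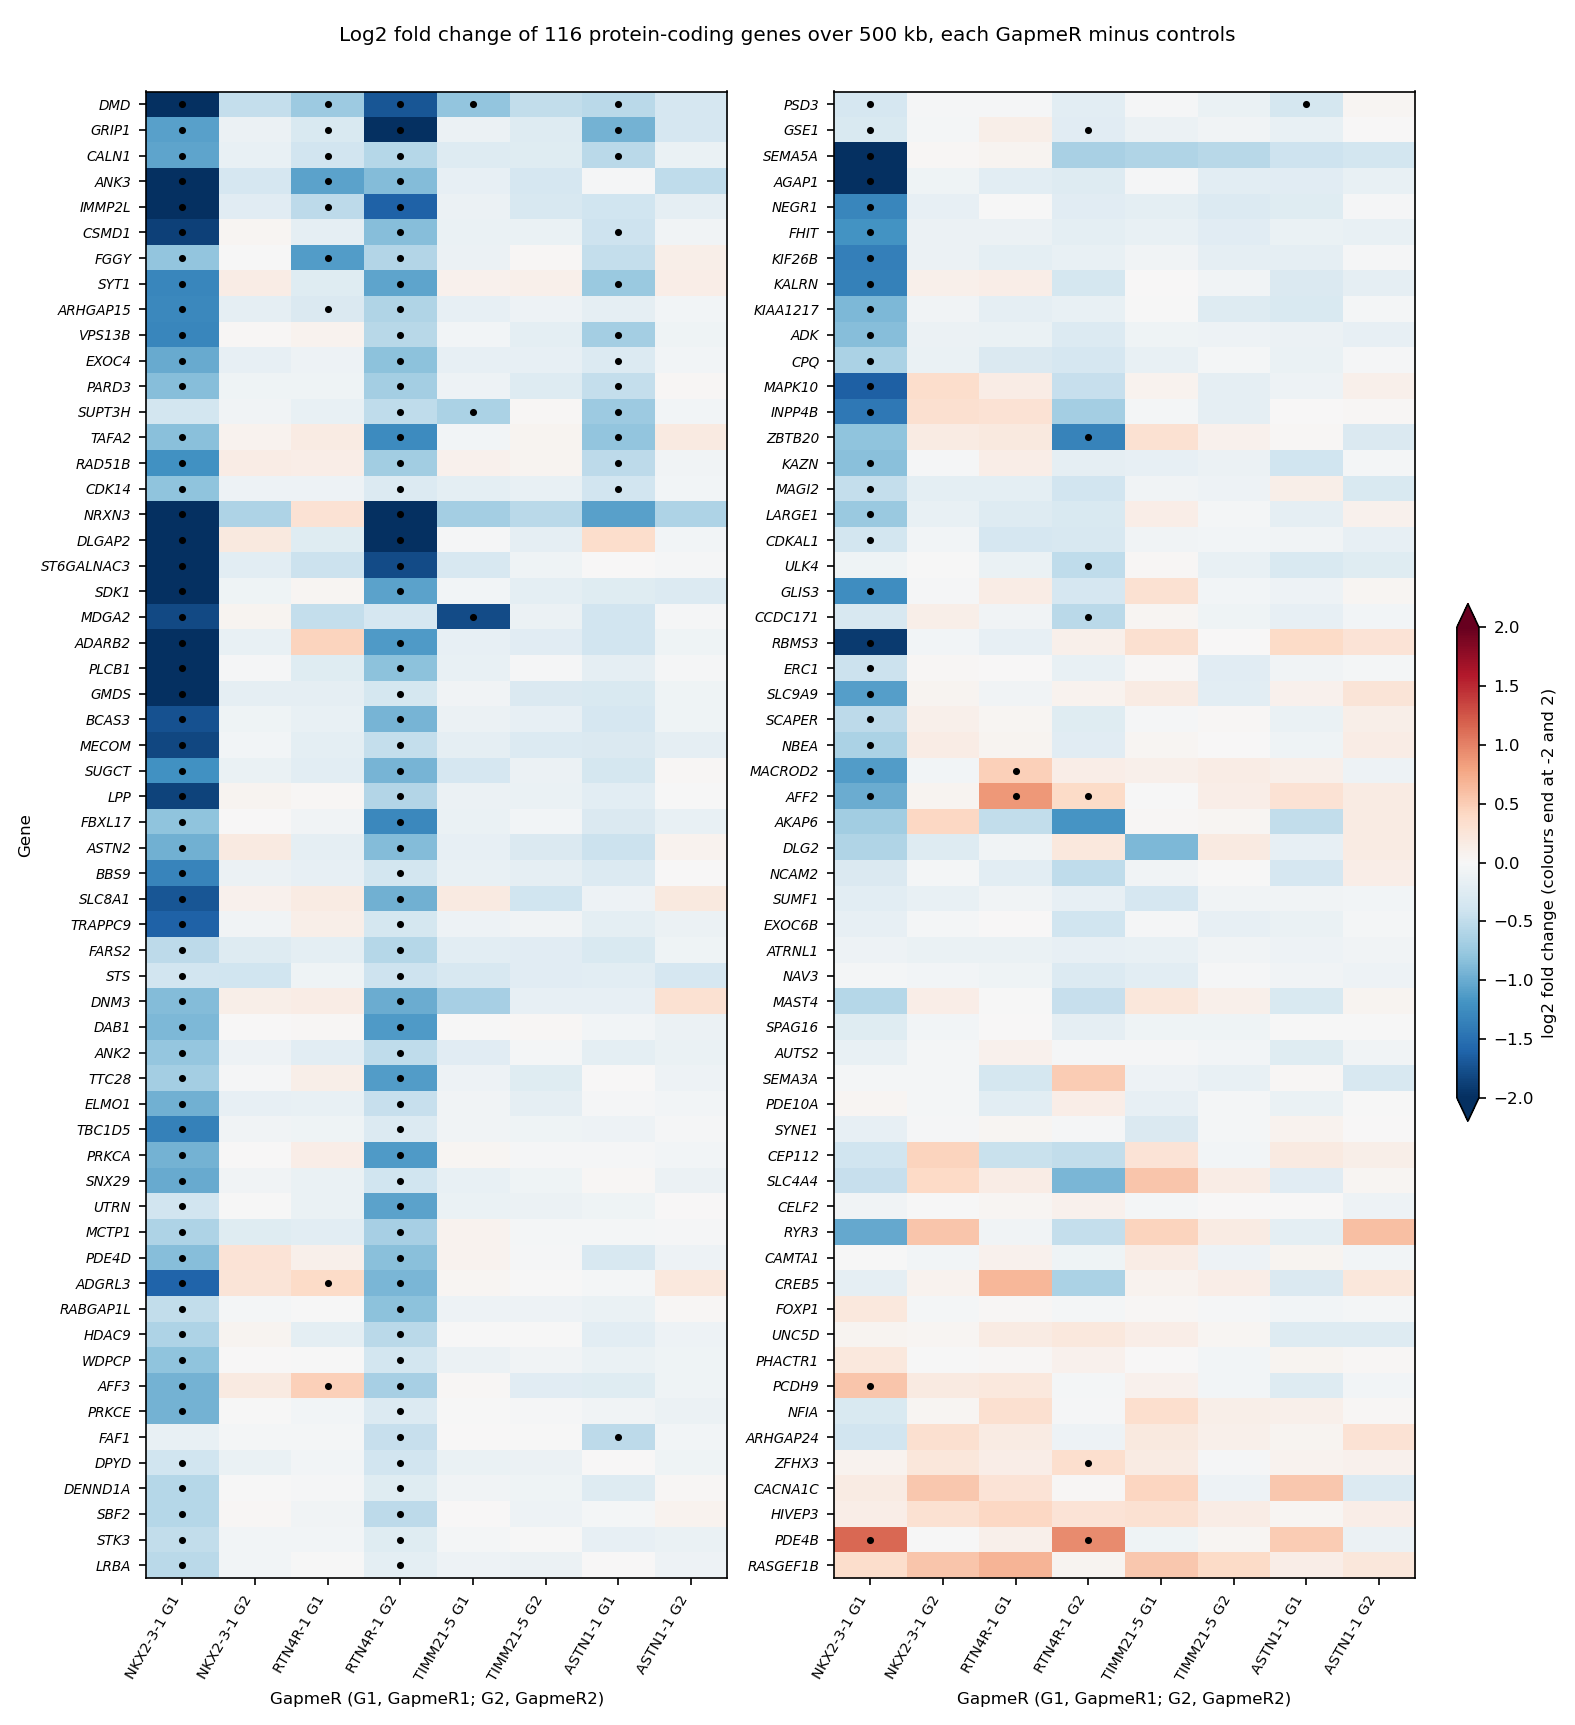
Log2 fold change (colour) of each of the 116 long genes (rows, in 2 panels, ordered by the number of GapmeRs with which they were lower) with each of the 8 GapmeRs compared with controls (columns). A black dot marks an adjusted p under 0.05, and the dots fill the columns of lnc-NKX2-3-1 GapmeR1 (83 dots) and lnc-RTN4R-1 GapmeR2 (64 dots) while the columns of 3 GapmeRs have none.

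Only 7 of the 116 genes rose with any GapmeR, and 4 of these fell with another one. PDE4B, a phosphodiesterase that degrades cyclic AMP, had 3.07 and 2.9 CPM in medium and 2.38, 1.57 and 1.52 CPM with NTC, 5.73 and 4.51 CPM with lnc-NKX2-3-1 GapmeR1 and 5.28, 3.61 and 4.44 CPM with lnc-RTN4R-1 GapmeR2. Both groups were above every control (log2 fold change 1.16, SE 0.26, adjusted p = 0.00194, and log2 fold change 0.95, SE 0.24, adjusted p = 0.0101). PCDH9, a protocadherin, had 61.5 and 69.99 CPM in medium and 54.4, 58.4 and 46 CPM with NTC, and 72.4 and 97.5 CPM with lnc-NKX2-3-1 GapmeR1 (log2 fold change 0.55, SE 0.17, adjusted p = 0.0221). ZFHX3, a homeobox transcription factor, had 29.4 and 31.1 CPM in medium and 31.5, 31.6 and 36 CPM with NTC, and 43.2, 39.6 and 37.4 CPM with lnc-RTN4R-1 GapmeR2 (log2 fold change 0.33, SE 0.10, adjusted p = 0.0356). The gap between the highest control and the lowest treated sample was narrow for PCDH9 and ZFHX3, and ZFHX3 kept its call in 2 of the 8 fits that left out 1 sample. PCDH9 lost its call without replicate 2 of lnc-NKX2-3-1 GapmeR1, and PDE4B without replicate 1 of either GapmeR with which it rose.

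The genes that went both ways were AFF2, AFF3, MACROD2 and ADGRL3, each higher with lnc-RTN4R-1 GapmeR1 and lower with lnc-NKX2-3-1 GapmeR1. AFF2, a scaffold of transcription elongation (chrX:148500617-149000663), had 26.3 and 31.5 CPM in medium and 32.5, 35.7 and 36.7 CPM with NTC. It had 59.6, 56.6 and 61.7 CPM with lnc-RTN4R-1 GapmeR1, 41.2, 40.6 and 46 CPM with lnc-RTN4R-1 GapmeR2 and 16.8 and 16 CPM with lnc-NKX2-3-1 GapmeR1. All of these were outside the range of the controls, with log2 fold changes of 0.87 (adjusted p = 2.79e-07), 0.39 (adjusted p = 0.00470) and -0.99 (adjusted p = 2.64e-07). AFF3 of the same family had 29.4 and 31.6 CPM in medium and 26.4, 34.3 and 32.5 CPM with NTC, and then 42, 46.2 and 40.9 CPM with lnc-RTN4R-1 GapmeR1 (log2 fold change 0.48 (adjusted p = 0.000187)). It had 19.2, 19.4 and 20.01 CPM with lnc-RTN4R-1 GapmeR2 and 16.4 and 15.6 CPM with lnc-NKX2-3-1 GapmeR1, log2 fold changes of -0.66 (adjusted p = 1.39e-06) and -0.95 (adjusted p = 2.06e-08). The 2 GapmeRs against lnc-RTN4R-1 thus moved AFF3 in opposite directions, and the direct comparison between them gave 1.14 (SE 0.09, adjusted p = 4.85e-10). MACROD2, an ADP-ribose hydrolase, had 8.82 and 7.07 CPM in medium and 8.15, 8.99 and 8.79 CPM with NTC, 11.9, 11.1 and 11.9 CPM with lnc-RTN4R-1 GapmeR1 and 4.63 and 3.01 CPM with lnc-NKX2-3-1 GapmeR1 (log2 fold changes 0.48 (adjusted p = 0.0424) and -1.12 (adjusted p = 1.47e-05)). Its rise with lnc-RTN4R-1 GapmeR1 passed the test in 1 of the 8 fits that left out 1 sample, the one without NTC replicate 3. ADGRL3, an adhesion receptor named here after its values were seen, had log2 fold changes of 0.38 (adjusted p = 0.0285) and -1.60 (adjusted p = 9.94e-10), and -0.92 (adjusted p = 9.84e-07) with lnc-RTN4R-1 GapmeR2.

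No call was made with any GapmeR for 27 of the 116. CELF2 was the most abundant of these per kilobase of exon. It had 265 and 261 CPM in medium and 265, 268 and 256 CPM with NTC, 243 and 256 CPM with lnc-NKX2-3-1 GapmeR1 and 294, 297 and 250.5 CPM with lnc-RTN4R-1 GapmeR2, with log2 fold changes of -0.07 (adjusted p = 0.564) and 0.09 (adjusted p = 0.440). DLG2, the second longest, had 1.24 and 1.64 CPM in medium and 1.13, 1.57 and 1.09 CPM with NTC, and 0.749, 0.855 and 0.557 CPM with lnc-TIMM21-5 GapmeR1, below every control without passing the test (log2 fold change -0.89, SE 0.27, adjusted p = 0.384). Across the 116 genes, Spearman's rank correlation between span and log2 fold change lay between -0.26 (lnc-ASTN1-1 GapmeR2) and -0.04 (lnc-RTN4R-1 GapmeR2) for the 8 GapmeRs, with -0.23 for both GapmeRs of lnc-NKX2-3-1. These are values over genes of the same libraries that are not independent replicates.

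**Figure D3:**
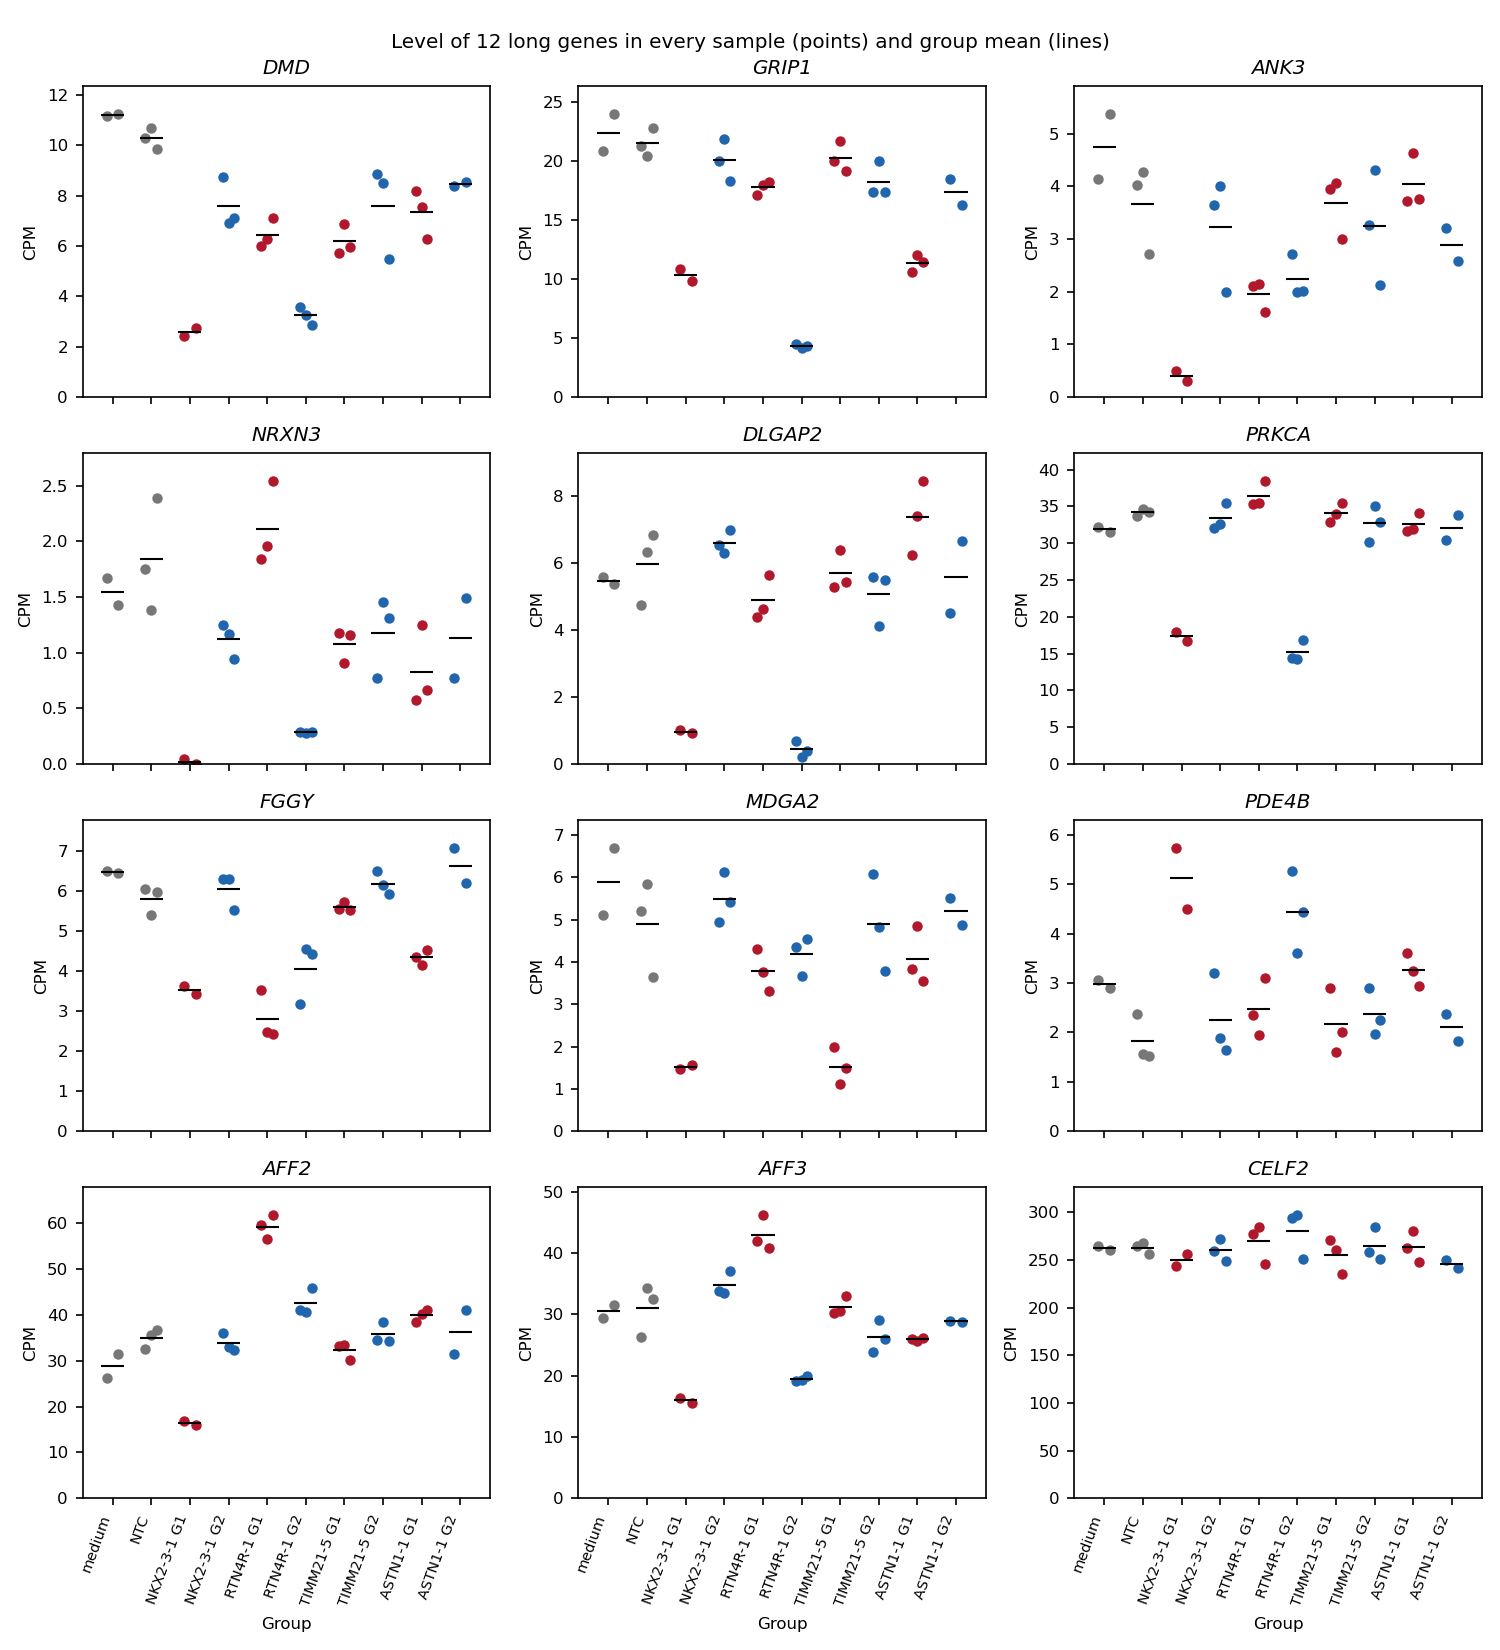
Level in CPM (vertical axes, each from 0) of 12 of the long genes in every sample (points) of the 10 groups (horizontal axis), with the group mean as a black line, controls in grey, GapmeR1 in red and GapmeR2 in blue. GRIP1 lies lowest with lnc-RTN4R-1 GapmeR2 (4.16 to 4.46 CPM), AFF3 is high with lnc-RTN4R-1 GapmeR1 and low with its GapmeR2, and CELF2 stays between 235 and 297 CPM throughout.

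The 2 GapmeRs against one lncRNA were compared directly. They differ in sequence, and some pairs also differed in how far the target fell. Target log2 fold changes with GapmeR1 and GapmeR2 were -2.59 and -2.59 (lnc-NKX2-3-1), -1.83 and -2.15 (lnc-RTN4R-1), -2.41 and -2.91 (lnc-TIMM21-5), -1.305 and -0.937 (lnc-ASTN1-1). Whether the long genes follow the lncRNA or the oligonucleotide was thus not tested. For lnc-NKX2-3-1, 77 of 116 were lower with GapmeR1 than with GapmeR2 and 1 was higher, beside 11.1% and 6.86% of all genes. The smallest adjusted p-values were those of PLCB1 with -2.69 (SE 0.10, adjusted p = 5.92e-16), SDK1 with -2.91 (SE 0.13, adjusted p = 2.67e-14) and TBC1D5, a GTPase-activating protein for Rab proteins, with -1.27 (SE 0.06, adjusted p = 3.47e-14). TBC1D5 had 180.3 and 180.0 CPM in medium and 178, 182 and 178 CPM with NTC, 70.8 and 70.3 CPM with GapmeR1 and 171, 169.7 and 171 CPM with GapmeR2. The values with GapmeR2 were 28.1 ± 0.936 CPM (SD, n = 3) for PLCB1 and 35.1 ± 3.55 CPM (SD, n = 3) for SDK1, close to the controls.

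For lnc-RTN4R-1 the order was the other way round. With GapmeR1, 47 of 116 were higher than with GapmeR2 and 3 lower, beside 5.3% and 3.91% of all genes. The replicate block gave 72 and 4. No share over all genes is given for that fit, so these counts describe the long genes alone. GRIP1 differed by 2.04 (SE 0.10, adjusted p = 1.89e-13), PRKCA, protein kinase C alpha, by 1.26 (SE 0.08, adjusted p = 1.39e-11) and TTC28, a cell division protein, by 1.24 (SE 0.08, adjusted p = 2.10e-11). PRKCA had 32.2 and 31.6 CPM in medium and 33.7, 34.6 and 34.2 CPM with NTC, 35.4, 35.4 and 38.4 CPM with GapmeR1 and 14.4, 14.3 and 16.8 CPM with GapmeR2. TTC28 had 44.5, 42.8 and 44.9 CPM with GapmeR1 and 18.7, 17.3 and 20.1 CPM with GapmeR2.

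For lnc-TIMM21-5, 2 were lower with GapmeR1 than with GapmeR2 and none higher (0.0861% and 0.0492% of all genes). These were MDGA2, called in every fit that left out 1 of the 6 samples, with -1.68 (SE 0.22, adjusted p = 0.000126) and SUPT3H, called in 1 of these fits (without replicate 3 of GapmeR1), with -0.65 (SE 0.13, adjusted p = 0.0215). MDGA2 had 6.07, 4.84 and 3.8 CPM with GapmeR2, and SUPT3H 19.3, 18.7 and 21.4 CPM. The replicate block gave 3 lower and 2 higher, without a share over all genes. For lnc-ASTN1-1, 8 were lower with GapmeR1 and none higher (0.529% and 0.0246% of all genes). The block gave 15 lower, also without such a share. PARD3 differed by -0.49 (SE 0.07, adjusted p = 0.000107), FAF1 by -0.47 (SE 0.07, adjusted p = 0.000163) and GRIP1 by -0.62 (SE 0.10, adjusted p = 0.00106). Levels with GapmeR2 were 116 and 108 CPM for PARD3, 101 and 94.6 CPM for FAF1 and 18.5 and 16.3 CPM for GRIP1.

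Each GapmeR was also compared with the GapmeRs of the other 3 lncRNAs, a reference in which no control sample enters. lnc-NKX2-3-1 GapmeR1 then had 74 of 116 lower and 2 higher (12.8% and 9.85% of all genes), and lnc-RTN4R-1 GapmeR2 43 and 5 (5.07% and 5.62%). For lnc-ASTN1-1 GapmeR1, 3 were lower and 16 higher (1.1% and 0.91%). The lower ones were FAF1, SUPT3H and VPS13B. FGGY was the only one of the 116 lower with lnc-RTN4R-1 GapmeR1, while 23 were higher (0.762% and 2.11% of all genes). MDGA2 and SYNE1, a nuclear envelope protein named after its value was seen, were lower with lnc-TIMM21-5 GapmeR1 and 26 genes higher (0.264% and 0.94%). lnc-NKX2-3-1 GapmeR2, lnc-TIMM21-5 GapmeR2 and lnc-ASTN1-1 GapmeR2 had none lower and 5, 24 and 18 higher. Over all genes the shares lower were 0.0307%, 0.191% and 0.0307%, and those higher 0.307%, 0.768% and 0.473%. By its construction this reference includes lnc-NKX2-3-1 GapmeR1 or lnc-RTN4R-1 GapmeR2 or both, and against it DMD changed sign with lnc-RTN4R-1 GapmeR1, lnc-TIMM21-5 GapmeR1 and lnc-ASTN1-1 GapmeR1. Both MDGA2 and FGGY kept their direction and their call.

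The long genes were also grouped by role in 6 lists. These lists are partial. PCDH9, which rose with lnc-NKX2-3-1 GapmeR1, and SDK1, MDGA2 and ADGRL3, which fell with it, encode adhesion proteins and were in no list. The kinase gene CDK14, which fell with it too, was in none either. Of 11 common fragile site genes, 9 were lower with lnc-NKX2-3-1 GapmeR1 (median log2 fold change -0.85) and 5 with lnc-RTN4R-1 GapmeR2 (-0.31), beside 81 and 61 of all 116 (medians -0.80 and -0.41). DMD, IMMP2L and PARD3 were among those that fell with both, and MACROD2 fell with the former alone. In the 10 listed adhesion and cytoskeleton genes, 9 fell with lnc-NKX2-3-1 GapmeR1 (median -1.11) and 7 with lnc-RTN4R-1 GapmeR2 (-0.63), ANK3, NRXN3 and UTRN among them. The 10 membrane trafficking genes had 9 and 8 lower (medians -0.82 and -0.38), with EXOC4, VPS13B and TBC1D5. All 4 DNA repair and replication genes fell with the former (median -1.21), and 2 with the latter (median -0.50), of which RAD51B is one. Of 9 kinase, phosphodiesterase and signalling genes, 6 and 4 were lower (medians -0.94 and -0.46), among them PLCB1 and PRKCA, while PDE4B rose with both. The 12 transcription and chromatin regulators had 5 and 5 lower, the smallest medians of these 6 lists (-0.49 and -0.21), and AFF2 and ZFHX3 higher with lnc-RTN4R-1 GapmeR2. With lnc-ASTN1-1 GapmeR1 these lists had between 0 and 2 lower genes each.

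Shorter protein-coding genes with the same minimum level were set beside the long ones. With lnc-NKX2-3-1 GapmeR1, 6.03% of 2088 genes under 10 kb were lower, 12.7% of 2058 genes of 50 to 100 kb, 19.7% of 1393 genes of 100 to 200 kb, 45.8% of 653 genes of 200 to 500 kb and 69.8% of the 116. The share that was higher was 8.48%, 13.6%, 10.6%, 4.75% and 1.72% in the same classes. For lnc-RTN4R-1 GapmeR2 the shares lower were 1.34%, 5.73%, 12.4%, 27.7% and 52.6% in the same classes. For lnc-ASTN1-1 GapmeR1 they were 0.144%, 1.46%, 1.79%, 4.75% and 12.1%. Medians of the 116 were below those of the 200 to 500 kb class with all 8 GapmeRs, with differences from the largest (-0.80 against -0.28, lnc-NKX2-3-1 GapmeR1) down to lnc-NKX2-3-1 GapmeR2 (-0.03 against 0.0046). These shares are a description, and the classes were not tested against each other.

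**Figure D4:**
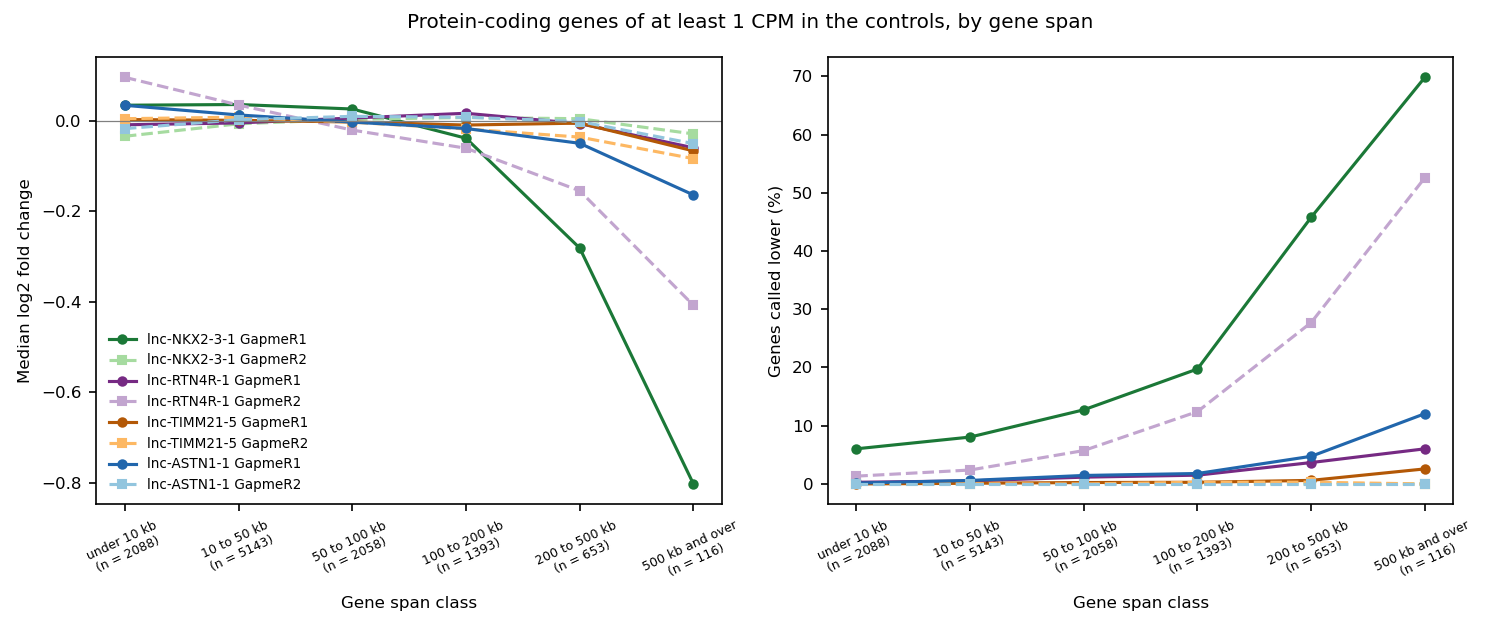
Median log2 fold change (left) and share of genes called lower in % (right) for protein-coding genes of at least 1 CPM in the controls, by class of gene span (horizontal axes, with the number of genes), with 1 line per GapmeR (solid, GapmeR1, and dashed, GapmeR2). The lines of lnc-NKX2-3-1 GapmeR1 and lnc-RTN4R-1 GapmeR2 lie above the other 6 in every class of the right panel and end at -0.80 and -0.41 in the left panel for the 116 longest.

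Pairing between each GapmeR and the gene spans was searched on the sense strand of hg38, in exons and introns. Each site below has the longest run of uninterrupted pairing found for its gene and GapmeR. The genes are some of those named above for a fall with that GapmeR. The last pair shows sites of long pairing in genes that missed the threshold of the test. Capitals mark the longest paired run, and positions are those of hg38:
MDGA2, chr14:47580421-47580436, - strand, intron, lnc-TIMM21-5 GapmeR1: TACCAAATGCAAAATg
SUPT3H, chr6:45328941-45328956, - strand, intron, lnc-TIMM21-5 GapmeR1: TACCAAATGCAAAtat
DMD, chrX:31618410-31618425, - strand, intron, lnc-TIMM21-5 GapmeR1: TACCAAATGCAAAtat
FGGY, chr1:59752816-59752831, + strand, intron, lnc-RTN4R-1 GapmeR1: tcaAACCCATGAATGC
ANK3, chr10:60446995-60447010, - strand, intron, lnc-RTN4R-1 GapmeR1: gcTAACCCATGAAggt
PRKCA, chr17:66585589-66585604, + strand, intron, lnc-RTN4R-1 GapmeR2: cacAGATGTCTCAGCt
GRIP1, chr12:66985736-66985751, - strand, intron, lnc-RTN4R-1 GapmeR2: atgAGATGTCTCAGag
AGAP1, chr2:236062232-236062247, + strand, intron, lnc-NKX2-3-1 GapmeR1: gAATCCGCACAGcaaa
NRXN3, chr14:78705389-78705404, + strand, intron, lnc-NKX2-3-1 GapmeR1: ggttctGCACAGAGCA
PLCB1, chr20:8426563-8426578, + strand, intron, lnc-NKX2-3-1 GapmeR1: caaaggGCACAGAGCA
SDK1, chr7:4251344-4251359, + strand, intron, lnc-NKX2-3-1 GapmeR1: aaatgtGCACAGAGCA
GRIP1, chr12:66824127-66824142, - strand, intron, lnc-ASTN1-1 GapmeR1: aaaTCCTGGCAGActc
DNM3, chr1:171968872-171968887, + strand, intron, lnc-TIMM21-5 GapmeR1: TACCAAATGCAAAATT
SPAG16, chr2:214045818-214045833, + strand, intron, lnc-TIMM21-5 GapmeR1: aACCAAATGCAAAATT
The site in MDGA2 left a single base of lnc-TIMM21-5 GapmeR1 unpaired, and the 3 genes lower with this GapmeR had runs of 15, 13 and 13 bases. DNM3, a dynamin, carried a site that paired in full, and its log2 fold change was -0.66 (adjusted p = 0.656). In SPAG16, a sperm flagellum protein whose site left 1 base unpaired, it was -0.08 (adjusted p = 0.9996). Of 21 long genes with a run of at least 13 bases for this GapmeR, 3 were lower. FGGY had a run of 13 bases with lnc-RTN4R-1 GapmeR1, for which 2 of 8 long genes with a run of at least 13 were lower. Among all genes tested whose longest run was 13 bases, 39.4% of 33 were lower with lnc-RTN4R-1 GapmeR1. The same share was 4.72% of 127 for lnc-TIMM21-5 GapmeR1. Of the long genes in these classes, 2 of 6 and 2 of 15 were lower. None of the printed sites lies in an exon. FAF1, which also fell with lnc-ASTN1-1 GapmeR1, had a run of 13 bases that is not printed. Of 7 long genes with a longest run of 13 for this GapmeR, 1 was lower, beside 32.7% of 49 over all genes.

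Pairing of the long genes with lnc-NKX2-3-1 GapmeR1 was short. No long gene had a site with fewer than 2 mismatches to it, and 79 of the 81 lower genes had no run above 11 bases. In NRXN3, PLCB1 and SDK1 the longest run was 10 bases, and it was the same 10 bases at the 3′ end of the site. That run was also the longest in ANK3 and DMD, which fell. It was the longest in ZFHX3 too, which was not lower (mean 33.6 CPM against 31.9 CPM in the controls). GRIP1 and MDGA2 had no run of 10 or more bases, and their log2 fold changes were -1.08 (adjusted p = 5.43e-09) and -1.81 (adjusted p = 4.06e-06). Of the long genes whose longest run was 9 bases or fewer, 18 of 27 were lower, and of those with 10 bases 54 of 76. Over all genes tested the shares lower were 7.99% and 37.2%. For longest runs of 11, 12 and 13 bases, 7 of 11, 1 of 1 and 1 of 1 long genes were lower. The shares over all genes were then 43.4% of 152, 55.3% of 38 and 71.4% of 7. For lnc-RTN4R-1 GapmeR2, 16 of 36 long genes with a run of 10 bases were lower, 34 of 57 with 11 and 8 of 16 with 12, whereas over all genes these shares were 11.1%, 24.1% and 34.9%. The 1 long gene with a longest run of 13 was not lower, beside 56.8% of 44 lower over all genes. DLGAP2, which had the deepest fall with this GapmeR (log2 fold change -3.70), had the longest run of all 116, 14 bases. Its site is not printed. Over all genes, 85.7% of the 7 with a longest run of 14 were lower.

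Other GapmeRs had longer runs of pairing in the long genes without any call. With lnc-NKX2-3-1 GapmeR2 all 116 genes had a run of at least 11 bases, 29 had one of at least 13, and none was called. Over all genes tested, 9856 had a longest run of 11 bases with this GapmeR, and 0.0203% of these were lower. None of the 477 with a longest run of 13 was lower. With lnc-TIMM21-5 GapmeR2, 26 genes had a run of at least 13 bases and none was called. Over all genes, 1.29% of the 155 with a longest run of 13 were lower. Both GapmeRs have 31.25% G and C bases, and the part of this share was not tested. A longer span holds more sites, so the length of the pairing and the span of the gene cannot be told apart in these counts, and a site is a match of letters and not a measured cut.

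**Figure D5:**
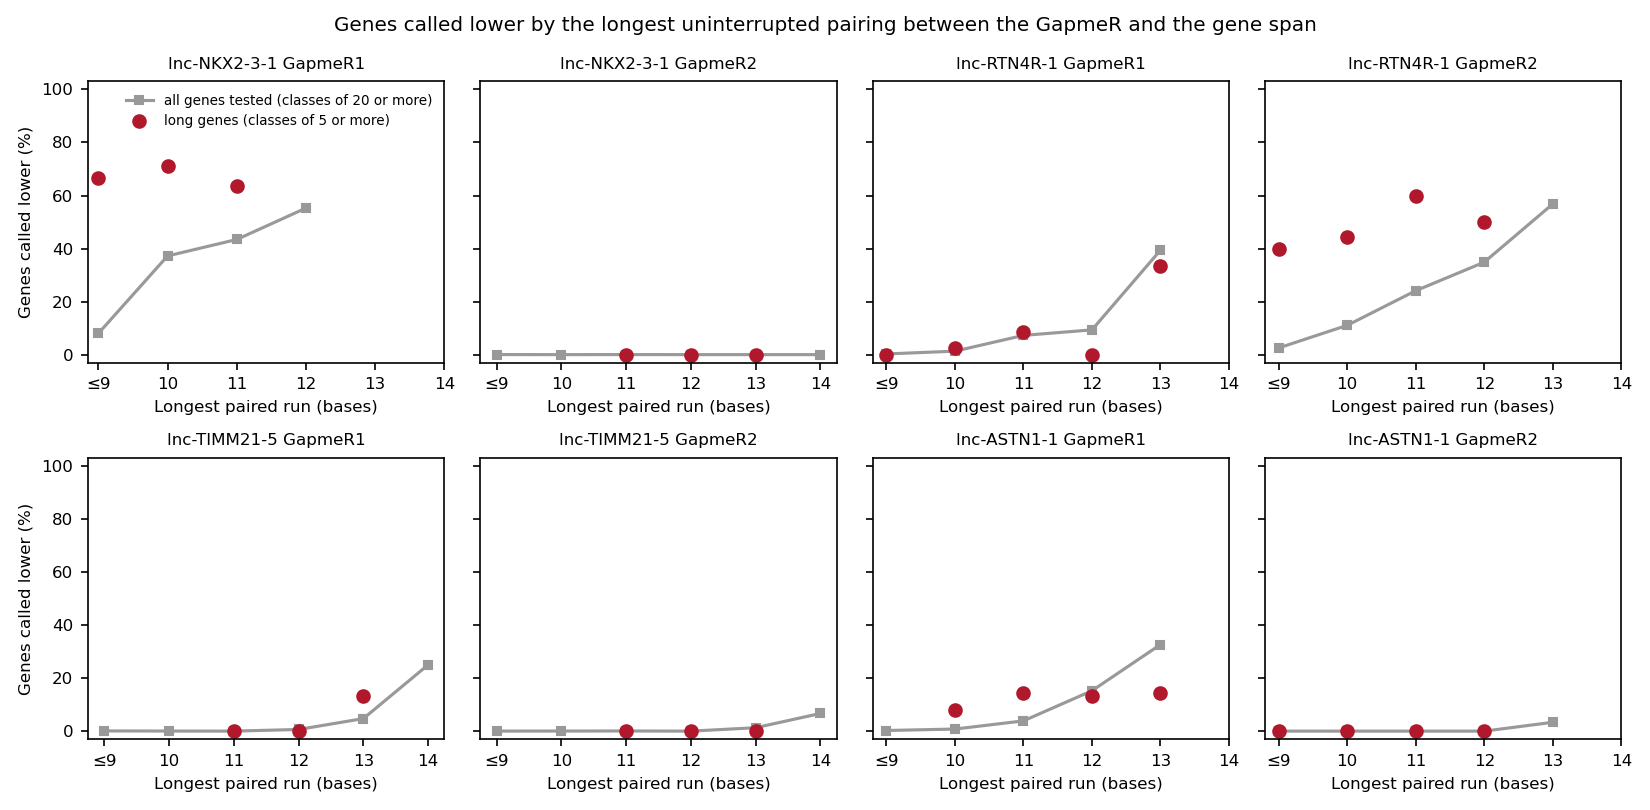
Share of genes called lower (vertical axes, %) by the longest uninterrupted run of bases that pair between the GapmeR and the gene span (horizontal axes; the first class holds 9 bases or fewer), with 1 panel per GapmeR. Grey squares are all genes tested in classes of at least 20 genes, and red circles are the long genes in classes of at least 5. The circles lie above the grey line for lnc-NKX2-3-1 GapmeR1 and lnc-RTN4R-1 GapmeR2, and at 0 for 3 GapmeRs.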

How the data were processed

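RNA was sequenced from 27 samples in 10 groups. The labels give ribodepleted, stranded total RNA, whereas the methods of the study name poly-A selection. The authors aligned reads to hg38 with STAR and deposited its raw gene counts in 3 columns per sample. Column 4, with 95.15% to 95.41% of the counts of both strands, was used. Reads in rows that name no gene, 23% to 28.52%, were left out. GENCODE release 44 gave spans for 56434 of 60619 identifiers. The annotation used for counting is not given in the sources used here.

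Genes with at least 10 counts in enough samples and 15 in total were scaled by TMM and fitted once over all 27 samples in edgeR 4.0.16 (robust quasi-likelihood test, two-sided), with medium and NTC as 1 control group. P-values were adjusted after Benjamini-Hochberg over 16268 genes, and changed means an adjusted p under 0.05. CPM per sample are TMM-scaled. P-values measure the spread between replicates of 1 cell line on different days.

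Samples with the same replicate number deviated together (mean correlation of deviations 0.263 over 109 pairs, against -0.1302 over 218 pairs with different numbers), so the number was also fitted as a block. Alternatives were DESeq2 1.42.0, RLE scaling, no filter, unstranded counts, the samples of each comparison alone, NTC as the only control, other GapmeRs as reference, a minimum log2 fold change of 0.5 and leaving out each sample. A fit of replicates 1 and 2 only was added after seeing the data. The scripts were tested on simulated data. Pairing was searched with Watson-Crick matches only, from runs of 10 bases. The named genes were the long genes lower with 3 or more GapmeRs, up to 5 with the lowest and 3 with the highest fold change per GapmeR, the 3 with the smallest adjusted p in each comparison of GapmeR1 with GapmeR2, and the 3 with the largest span or control level per kilobase of exon. The genes and lists were chosen with earlier results of these data known. One list of genes is not reported here.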

Additional observations from a re-analysis of the deposited data

Results flagged for a closer look

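Among the 5 controls, SDK1 was highest in NTC replicate 3, at 42.12 CPM, farther from the next sample than Dixon's limit allows. This was 1 such case among 36 named genes, and chance gives about 1 in 20.

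GapmeR1 and GapmeR2 of lnc-NKX2-3-1 differed in 78 of the 116 long genes, those of lnc-RTN4R-1 in 50, of lnc-TIMM21-5 in 2 and those of lnc-ASTN1-1 in 8 (edgeR test of the difference, Benjamini-Hochberg adjusted). As log2 fold changes of GapmeR1 minus GapmeR2, PLCB1 had -2.69, SDK1 -2.91 and TBC1D5 -1.27 for lnc-NKX2-3-1. GRIP1 had 2.04, PRKCA 1.26 and TTC28 1.24 for lnc-RTN4R-1. MDGA2 had -1.68 and SUPT3H -0.65 for lnc-TIMM21-5, and PARD3 had -0.49, FAF1 -0.47 and GRIP1 -0.62 for lnc-ASTN1-1. GRIP1 was thus higher with GapmeR1 than with GapmeR2 of lnc-RTN4R-1 and lower with GapmeR1 than with GapmeR2 of lnc-ASTN1-1.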

How the results depend on the processing

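Numbers of changed long genes are given as lower and higher together. Where no share over all genes is printed, here or above, these numbers describe the long genes alone. The replicate block by its construction groups samples of the same replicate number, and neither labels nor methods state that these shared a day. Under this block lnc-NKX2-3-1 GapmeR2 had 5 changed long genes and lnc-RTN4R-1 GapmeR1 had 25. The lnc-TIMM21-5 pair had 11 with GapmeR1 and 5 with GapmeR2, while the lnc-ASTN1-1 pair had 37 and 1 in that order. Direct comparison of GapmeR1 with GapmeR2 then gave 76 differing long genes in the lnc-RTN4R-1 pair. It gave 5 in the lnc-TIMM21-5 pair and 15 in the lnc-ASTN1-1 pair. The block left all 151 calls of named genes in place. Against the GapmeRs of the other lncRNAs, the numbers were 5 for lnc-NKX2-3-1 GapmeR2, 24 for lnc-RTN4R-1 GapmeR1, 28 and 24 for lnc-TIMM21-5 GapmeR1 and GapmeR2, 18 for lnc-ASTN1-1 GapmeR2, and 36 genes lower with 2 or more GapmeRs. By its construction that reference contains lnc-NKX2-3-1 GapmeR1 or lnc-RTN4R-1 GapmeR2, or both. With the samples of each comparison alone, 6 genes changed with lnc-RTN4R-1 GapmeR1 and 9 with lnc-ASTN1-1 GapmeR1, and 1 differed between the GapmeRs of lnc-TIMM21-5 and 0 between those of lnc-ASTN1-1. With NTC as the only control, 5 changed with lnc-RTN4R-1 GapmeR1 and 1 with lnc-TIMM21-5 GapmeR1. DESeq2 gave 5 and 1 for lnc-TIMM21-5 GapmeR1 and GapmeR2. Without a filter, 1 changed with lnc-NKX2-3-1 GapmeR2. A minimum log2 fold change of 0.5 left 5 for lnc-RTN4R-1 GapmeR1 and 9 for lnc-ASTN1-1 GapmeR1. The cause was not tested where no construction is named.

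Leaving out 1 sample gave 65 to 81 genes for lnc-NKX2-3-1 GapmeR1, 4 to 11 and 51 to 61 for lnc-RTN4R-1 GapmeR1 and GapmeR2, 1 to 3 for lnc-TIMM21-5 GapmeR1, 10 to 15 for lnc-ASTN1-1 GapmeR1, 0 for the others, and 51 to 61 lower with 2 or more. Between GapmeR1 and GapmeR2 it gave 64 to 79 (lnc-NKX2-3-1), 43 to 48 (lnc-RTN4R-1), 1 to 2 (lnc-TIMM21-5) and 3 to 6 (lnc-ASTN1-1). Fewer than 9 changed with lnc-RTN4R-1 GapmeR1 without any 1 of its own samples, the medium samples or NTC replicates 1 and 2, and the lone remaining sample of a group was taken to vary like the others.

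Of 1231 values of named genes under these settings, 1148 kept direction and call, 72 kept direction alone and 11 reversed, all against the other GapmeRs. These were ARHGAP15 (0.0463), CALN1 (0.0171), DMD (0.0558), GRIP1 (0.18) and IMMP2L (0.0491) with lnc-RTN4R-1 GapmeR1, CDK14 (0.0104) and TBC1D5 (0.00958) with lnc-RTN4R-1 GapmeR2, DMD (0.19) with lnc-TIMM21-5 GapmeR1, and CSMD1 (0.11), DMD (0.50) and EXOC4 (0.13) with lnc-ASTN1-1 GapmeR1, as log2 fold changes. With 1 sample left out, 911 of 1012 kept direction and call and 101 kept direction alone. Depth limits the calls of genes near 1 CPM, and 3 GapmeRs without calls do not show that the long genes were unaffected by them.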

Other observations

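Long non-coding genes were outside the choice of protein-coding genes. Of 9 lncRNA genes with the same minimum span and control level, 5 were lower with lnc-NKX2-3-1 GapmeR1 and 5 with lnc-RTN4R-1 GapmeR2 (edgeR, Benjamini-Hochberg adjusted over all genes). With lnc-ASTN1-1 GapmeR1 2 were lower, with lnc-RTN4R-1 GapmeR1 1 and with lnc-ASTN1-1 GapmeR2 1. Over all genes, 11.7%, 5.46%, 0.996%, 0.842% and 0.0184% were lower in the same order. None of the 9 was higher with any of the 8 GapmeRs. Each of these counts of lower genes includes ENSG00000227579, the target of the lnc-ASTN1-1 GapmeRs. It was the only one lower with lnc-RTN4R-1 GapmeR1 and with lnc-ASTN1-1 GapmeR2. CCDC26 fell with lnc-NKX2-3-1 GapmeR1 by a log2 fold change of -1.09 (adjusted p = 0.000538) and with lnc-RTN4R-1 GapmeR2 by -1.55 (adjusted p = 4.87e-06). MIR99AHG, a host gene of microRNAs, had -0.59 (adjusted p = 0.00742) and -0.66 (adjusted p = 0.00171) with the same GapmeRs.

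One of the 9 was ENSG00000227579, the target of the lnc-ASTN1-1 GapmeRs, which spans 528 kb and had a mean of 25.3 CPM in the controls. Besides its own GapmeRs (log2 fold changes -1.30 (adjusted p = 2.09e-09) and -0.94 (adjusted p = 4.08e-05)), lnc-NKX2-3-1 GapmeR1 gave -0.48 (adjusted p = 0.00113), and the lnc-RTN4R-1 GapmeRs gave -0.59 (adjusted p = 0.000163) and -0.66 (adjusted p = 1.18e-05).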
